A study of Mus musculus with 16 samples.

Results

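The p53 and senescence genes described here are Trp53, Mdm2, Cdkn1a, Cdkn2a, Cdkn2b, Ccng1, Bax, Eda2r, Trp53inp1 and Gadd45b, taken by symbol from a table of read counts per gene. All 10 of 10 were present among the 41079 genes of that table, and all 10 were among the 16742 genes that passed edgeR's filter on low counts. Liver RNA was sequenced from 16 C57BL/6J mice aged 20 to 22 months, with 4 mice in each of 4 groups: male CRE-, male LKO, female CRE- and female LKO. Every mouse carried a floxed glucagon receptor gene, Gcgr. LKO mice also carried Cre under the albumin promoter, which is active in hepatocytes, and CRE- mice had no Cre, so the floxed allele was shared by the controls. Between 33268424 and 56488920 reads per mouse fell on genes. Levels are in CPM, a library's counts scaled to a common total with TMM, a trimmed mean that makes libraries comparable. The comparisons ask whether loss of the hepatic receptor went with a change in these genes in old livers of each sex.

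The transcription factor p53, encoded by Trp53, is stabilised by DNA damage and other stress and switches on genes that arrest the cell cycle, repair DNA or start apoptosis. It also switches on its own inhibitor Mdm2, a ubiquitin ligase that marks p53 for degradation. Senescence is a lasting arrest held by inhibitors of the cyclin-dependent kinases, p21 from Cdkn1a and the INK4 proteins from Cdkn2a and Cdkn2b. In liver, p21 limits division of hepatocytes after injury, and the transcript of Cdkn2a is a common marker of aged tissue.

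The targeted gene, Gcgr on chromosome 11 from 120420011 to 120429815 of GRCm39, was compared with the labels. It was at 190.4, 192.9, 127.3 and 189.6 CPM in the male CRE- livers and at 116.5, 135.9, 129.9 and 160.3 CPM in the male LKO livers, replicates 1 to 4. In the female CRE- livers it was at 161.8, 208.1, 200.7 and 180 CPM, and in the female LKO livers at 48.8, 131.9, 118.6 and 93.6 CPM. Every female LKO liver was below every female control, whereas in males only control replicate 3 lay among the LKO livers. Female LKO livers were at -0.93 in log2 against controls (SE 0.25, adjusted p = 0.0443 from the quasi-likelihood fit of edgeR, Benjamini-Hochberg adjusted), and male LKO livers at -0.37 (SE 0.24, adjusted p = 0.671 from Benjamini-Hochberg on edgeR quasi-likelihood). The female call did not pass without any of the CRE- replicates 1 to 4 or of the LKO replicates 1, 3 and 4, with adjusted p values up to 0.136 from that edgeR test, and the log2 fold change ranged from -1.11 to -0.69. Reads were counted over all exons of Gcgr, those outside the deletion among them, and other liver cells were not targeted, and every LKO liver kept reads. Hepatocyte markers named liver as the tissue: the 10 markers, led by albumin (Alb), summed to between 55100 and 137157 CPM per library. Their median log2 fold change was -0.34 in males and -0.73 in females, and that of Alb -0.33 and -0.69, beside the values of Gcgr, and their part in those values was not tested.

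In male LKO livers no gene of the group passed the test. Gadd45b was higher in every male LKO liver than in every male control, with 1 liver far above the rest, and so was Cdkn2a at a very low level. Mdm2, Ccng1, Eda2r and Trp53inp1 had male log2 fold changes between -0.16 and -0.01. At an adjusted p under 0.05, 0 of the 10 genes were called in males by the quasi-likelihood fit of edgeR, Benjamini-Hochberg adjusted, where 0.454% of the 16742 genes tested (76) were. At an unadjusted p under 0.05 there was 1 of the 10, Gadd45b, where 9.53% of all genes (1595) were. That count was 3 without male CRE- replicate 4, 3 with a replicate term in the fit, and 0 with DESeq2, which gave Gadd45b no p. Of all genes, 12.6%, 10.5% and 11.2% were under 0.05 in these fits. DESeq2's Wald test called 0 of the 10 and 2.03% of all genes, and limma-voom with sample quality weights called 0 of the 10 and 0.884%. Of the 10 genes, 2 were higher in every LKO liver than in every control, where 3.57% of all genes were, and 0 were lower in every LKO liver, where 2.92% of all genes were. The median log2 fold change of the 10 genes was 0.18, and that of all genes tested was -0.01. With at least 10 counts required in every library, which kept 9 of the 10 genes, both medians were -0.01.

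In female LKO livers no gene of the group passed the edgeR test either, and several differed widely from mouse to mouse. Mdm2 and Gadd45b were higher in every LKO liver than in every control. Cdkn1a was far above the controls in LKO replicates 1 and 4 and within their range in replicate 2, and Eda2r was high in replicates 1 and 3 and low in replicate 4. By the quasi-likelihood fit of edgeR, Benjamini-Hochberg adjusted, 0 of the 10 genes were called in females at an adjusted p under 0.05, where 4.24% of all genes tested (710) were. At an unadjusted p under 0.05 there were 4 of the 10, Mdm2, Cdkn1a, Gadd45b and Eda2r, all higher, where 12.3% of all genes were higher at that level. That count was 2 without female CRE- replicate 2, 3 with DESeq2 and 5 with limma-voom. DESeq2's Wald test called 2 of the 10, Cdkn1a and Mdm2, and 10.8% of all genes. Quality-weighted limma-voom called 3 of the 10, Mdm2, Bax and Gadd45b, and 11.8% of all genes. The groups did not overlap, with LKO higher, for 2 of the 10 genes and 5.20% of all genes, and with LKO lower for 0 of the 10 and 6.42% of all genes. The median log2 fold change of the 10 genes was 0.49 in females, and that of all genes tested was 0.04. In bulk liver RNA, fewer cells of a type and less RNA per cell cannot be told apart.

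**Figure D1:**
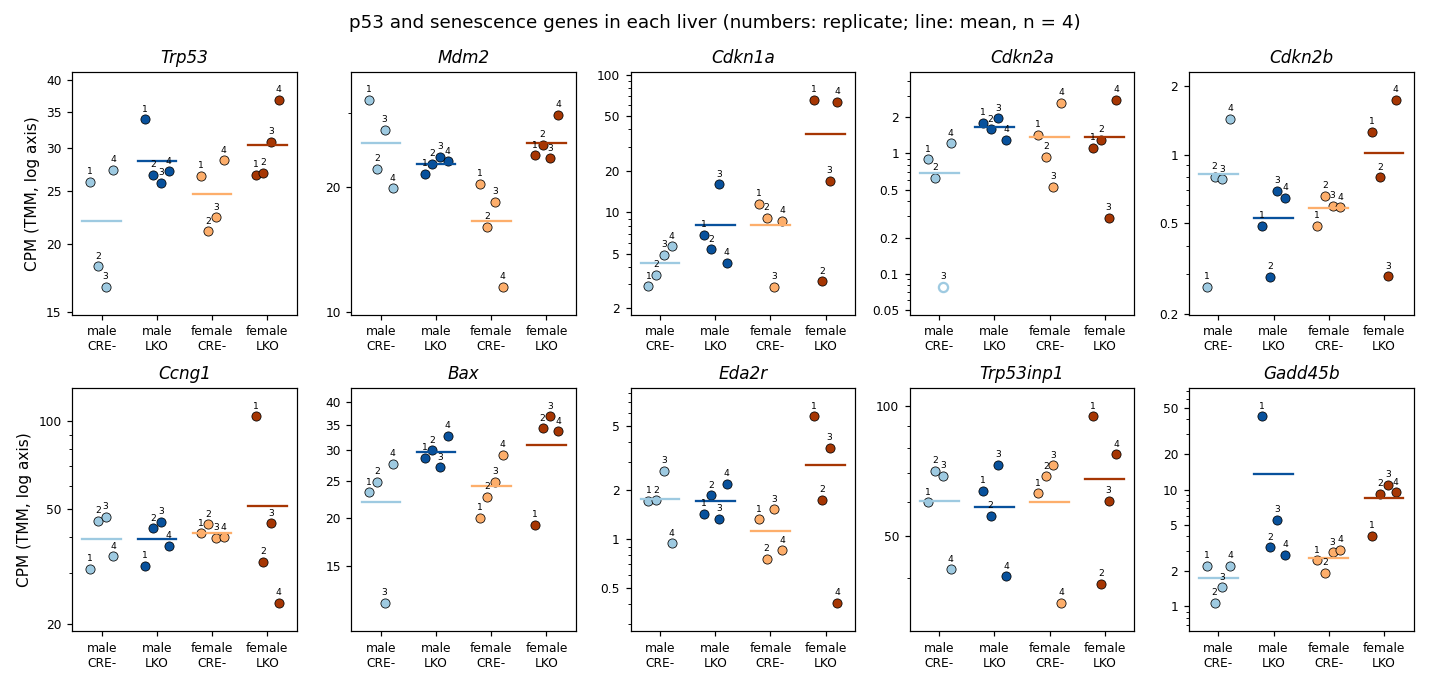
CPM of each of the 10 genes on a log axis in each of the 16 livers, with the replicate number above each point and a line at the mean of each group (n = 4). The open circle for Cdkn2a stands for a library with 0 counts, drawn at 0.0780 CPM, the level of 3 counts there.

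Between LKO and CRE- livers Trp53 overlapped in both sexes, and its inhibitor Mdm2 overlapped in males and not in females. Trp53, on chromosome 11 from 69471174 to 69482699 of GRCm39, lay between 16.7 and 36.8 CPM over the 16 livers, with its group means in the order male CRE-, female CRE-, male LKO and female LKO. Its groups overlapped in both sexes, and its log2 fold change was 0.36 in males (SE 0.18, adjusted p = 0.560 from the quasi-likelihood fit of edgeR, Benjamini-Hochberg adjusted) and 0.30 in females (SE 0.18, adjusted p = 0.376 from Benjamini-Hochberg on edgeR quasi-likelihood). Without male CRE- replicate 3 the male value was 0.23. Mdm2, on chromosome 10 from 117524780 to 117546663, was at 20.3, 16, 18.4 and 11.5 CPM in female CRE- livers and at 23.8, 25.2, 23.4 and 29.7 CPM in female LKO livers. The lowest female LKO liver was thus above the highest female control, and control replicate 4 was the lowest of the 16. In male CRE- livers Mdm2 was at 32.3, 22.1, 27.4 and 19.8 CPM, and in male LKO livers at 21.5, 22.7, 23.6 and 23 CPM. The male LKO livers lay close together inside the range of their controls. The female log2 fold change of Mdm2 was 0.63 (SE 0.19, adjusted p = 0.0646 from the quasi-likelihood fit of edgeR, Benjamini-Hochberg adjusted), and the male one was -0.16 (SE 0.19, adjusted p = 0.814 from Benjamini-Hochberg on edgeR quasi-likelihood). DESeq2's Wald test gave an adjusted p of 0.0213 in females, and over 15 alternatives the adjusted p ranged from 0.0213 to 0.175. Of these alternatives 3 called Mdm2: DESeq2, limma-voom and the edgeR fit with a replicate term. Leaving out a female mouse at a time with edgeR called Mdm2 in 0 of 8 fits, and its log2 fold change stayed between 0.50 and 0.74.

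Mdm2 was also compared between the control livers of the sexes, and the ranges overlapped. The log2 difference of female against male CRE- livers was -0.62 (SE 0.19, adjusted p = 0.157 from the quasi-likelihood fit of edgeR, Benjamini-Hochberg adjusted), with 4 female values from 11.5 to 20.3 CPM and 4 male values from 19.8 to 32.3 CPM. The mean of female LKO livers, 25.5 ± 2.86 CPM (SD, n = 4), was close to that of male controls, 25.4 ± 5.6 CPM (SD, n = 4). In this comparison of controls 0 of the 10 genes were called by edgeR, where 0.920% of all genes were. Mdm2 was the 1 member with an unadjusted p under 0.05, where 12.7% of all genes (2121) had one. DESeq2's Wald test called 0 of the 10 and 506 of all genes here, and limma-voom called 0 of the 10 and 329 of all genes. Mdm2 was also the 1 member whose LKO effect differed between the sexes at an unadjusted p under 0.05. The female effect minus the male effect was 0.79 in log2 (SE 0.26, adjusted p = 0.213 from Benjamini-Hochberg on edgeR quasi-likelihood). For that difference between the sexes 0 of the 10 genes and 0% of all genes tested were called by edgeR. Before adjustment 1 of the 10 and 2672 of the 16742 genes tested, a larger share, were under 0.05. The Wald test of DESeq2 called 0 of the 10 and 371 of all genes, and limma-voom called 0 of the 10 and 29 of all genes.

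Cdkn1a, which encodes p21 and is a classical p53 target, varied widely among female LKO livers. The gene lies on chromosome 17 from 29309953 to 29319696. It was at 11.5, 9.15, 2.87 and 8.66 CPM in female CRE- livers and at 65.6, 3.14, 16.9 and 63.3 CPM in female LKO livers. Replicates 1 and 4 of the LKO livers were far above every control, replicate 3 was modestly above them, and replicate 2 lay near the lowest control, so the groups overlapped. In males Cdkn1a was at 2.9, 3.52, 4.91 and 5.64 CPM in CRE- livers and at 6.82, 5.37, 16 and 4.27 CPM in LKO livers. Among male LKO livers replicates 1 and 3 were above every control and the others were not. In females the log2 value was 2.21 (SE 0.68, adjusted p = 0.0745 from the quasi-likelihood fit of edgeR, Benjamini-Hochberg adjusted), with 3 of 4 LKO livers above every control. Without female LKO replicate 2 it was 2.59, and Cdkn1a was called (adjusted p = 0.0147 from Benjamini-Hochberg on edgeR quasi-likelihood). Without female LKO replicate 1 it was 1.80 and was not called. DESeq2's Wald test gave an adjusted p of 0.00867, and limma-voom with sample quality weights gave a log2 fold change of 1.09 and an adjusted p of 0.276, the ends of the range over 15 alternatives. In males it was 0.93 in log2 (SE 0.67, adjusted p = 0.695 from Benjamini-Hochberg on edgeR quasi-likelihood), and 0.37 without male LKO replicate 3. The female effect minus the male effect was 1.27 in log2 (SE 0.94, adjusted p = 0.493 from Benjamini-Hochberg on edgeR quasi-likelihood). This difference was 0.33 with limma-voom, and from 0.87 without female LKO replicate 1 to 1.84 without male LKO replicate 3.

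The INK4 genes Cdkn2a and Cdkn2b, which inhibit the kinases that inactivate RB, lie 11669 bases apart on chromosome 4 and had few counts. Cdkn2a also encodes the ARF protein, an inhibitor of Mdm2, from another first exon, and a count per gene cannot separate these products. Cdkn2a had 44, 28, 0 and 54 counts in the male CRE- libraries and 70, 76, 79 and 48 in the male LKO libraries, which corresponds to 0.893, 0.624, 0 and 1.21 CPM and to 1.8, 1.58, 1.96 and 1.3 CPM. Each male LKO liver was above each male control, with the nearest values at 1.30 and 1.21 CPM. In control replicate 3, with 0 counts, a level of 3 counts would be 0.0780 CPM, and a fragment can add 2 counts. Its male log2 value was 1.27 (SE 0.79, adjusted p = 0.647 from the quasi-likelihood fit of edgeR, Benjamini-Hochberg adjusted), and 0.85 without control replicate 3. In females Cdkn2a was at 1.42, 0.934, 0.527 and 2.62 CPM in CRE- livers and at 1.11, 1.3, 0.293 and 2.78 CPM in LKO livers. These groups overlapped, with LKO replicate 4 above and replicate 3 below every control. The female log2 value was -0.01 (SE 0.77), and it was -0.63 without LKO replicate 4 and 0.52 without CRE- replicate 4. Cdkn2b had between 13 and 64 counts per library and between 0.264 and 1.74 CPM, with overlapping groups in both sexes. Its log2 fold change was -0.63 in males (SE 0.54) and 0.79 in females (SE 0.54), and neither was called. The female value was -0.24 with limma-voom and 0.41 without female LKO replicate 4, and the male one -0.21 without male CRE- replicate 4. A p that does not pass does not show that there is no difference.

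Gadd45b, a stress-inducible protein that binds an upstream kinase of the p38 and JNK pathways, was the member with non-overlapping groups in both sexes. The gene lies on chromosome 10 from 80765925 to 80768038. In males it was at 2.23, 1.07, 1.46 and 2.22 CPM in CRE- livers and at 42.6, 3.21, 5.52 and 2.76 CPM in LKO livers. Replicate 1 was far above the other LKO livers, and the lowest LKO liver was just above the highest control. In females Gadd45b was at 2.48, 1.93, 2.9 and 3.07 CPM in CRE- livers and at 4.03, 9.22, 11 and 9.49 CPM in LKO livers. Replicates 2, 3 and 4 lay close together well above the controls, and replicate 1 was nearer to them. On the log2 scale LKO males were 2.95 above controls (SE 0.71, adjusted p = 0.100 from the quasi-likelihood fit of edgeR, Benjamini-Hochberg adjusted) and LKO females 1.70 (SE 0.68, adjusted p = 0.155 from Benjamini-Hochberg on edgeR quasi-likelihood). Without male LKO replicate 1 the male log2 fold change was 1.11. DESeq2's Wald test gave Gadd45b no p in either sex. The quality-weighted limma-voom value in females was 2.03 (adjusted p = 0.0196 from limma-voom with Benjamini-Hochberg adjustment), the lowest adjusted p over 14 alternatives, of which the highest was 0.331. The female effect minus the male effect was -1.25 in log2 (SE 0.95, adjusted p = 0.506 from the quasi-likelihood fit of edgeR, Benjamini-Hochberg adjusted), and 0.60 without male LKO replicate 1.

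Among the effector genes, Ccng1, Eda2r, Bax and Trp53inp1, female LKO livers went different ways. Eda2r, a receptor for ectodysplasin A2 on the X chromosome from 96375936 to 96420786, was at 1.33, 0.759, 1.53 and 0.855 CPM in female CRE- livers and at 5.74, 1.75, 3.66 and 0.405 CPM in female LKO livers. Replicates 1, 2 and 3 were above every control and replicate 4, with 14 counts, was below every control. The log2 fold change of Eda2r was 1.37 in females (SE 0.55, adjusted p = 0.159 from the quasi-likelihood fit of edgeR, Benjamini-Hochberg adjusted). Without female LKO replicate 4 it was 1.73 and was called (adjusted p = 0.0445 from Benjamini-Hochberg on edgeR quasi-likelihood). Leaving out LKO replicate 1 gave 0.82, and over 15 alternatives to the edgeR quasi-likelihood fit the Benjamini-Hochberg adjusted p ran from 0.0445 to 0.492. In males Eda2r lay between 0.944 and 2.65 CPM in both groups, with a log2 fold change of -0.04 (SE 0.54). Ccng1 encodes cyclin G1, a p53 target that acts back on the p53 and Mdm2 loop. It was at 41.1, 44.2, 39.8 and 39.9 CPM in female CRE- livers and at 104.1, 32.8, 44.5 and 23.7 CPM in female LKO livers. The controls lay within a narrow range, LKO replicates 1 and 3 were above it, and replicates 2 and 4 were below it. The female log2 fold change of Ccng1 was 0.32 (SE 0.32, adjusted p = 0.628 from the quasi-likelihood fit of edgeR, Benjamini-Hochberg adjusted) and was -0.27 without LKO replicate 1 and 0.55 without LKO replicate 4. In males it was -0.01 (SE 0.32).

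Bax, which permeabilises the mitochondrial outer membrane in apoptosis, was at 20, 22.7, 24.8 and 29.2 CPM in female CRE- livers and at 19.2, 34.2, 36.8 and 33.6 CPM in female LKO livers. Replicates 2, 3 and 4 of the LKO livers were above every control, and replicate 1 was below every control. In males Bax was at 23.3, 24.8, 12 and 27.7 CPM in CRE- livers and at 28.7, 30, 27.1 and 32.7 CPM in LKO livers. All but replicate 3 of the male LKO livers were above every control, and control replicate 3 was far below the rest. The log2 fold change of Bax was 0.43 in males (SE 0.24, adjusted p = 0.589 from the quasi-likelihood fit of edgeR, Benjamini-Hochberg adjusted) and 0.36 in females (SE 0.24, adjusted p = 0.419 from Benjamini-Hochberg on edgeR quasi-likelihood). The male value was 0.21 without male CRE- replicate 3, and the female one 0.55 without female LKO replicate 1. Quality-weighted limma-voom, which gave female LKO replicate 1 a weight of 0.216, put the female value at 0.55 and called it (adjusted p = 0.0314 from limma-voom with Benjamini-Hochberg adjustment), against adjusted p values of up to 0.612 in the other alternatives. Trp53inp1, a p53 target that promotes apoptosis and autophagy, ranged from 34.9 to 94.9 CPM, and its groups overlapped in both sexes. Its log2 fold change was -0.05 in males (SE 0.28) and 0.18 in females (SE 0.28), the latter from -0.00 without female LKO replicate 1 to 0.37 without replicate 2.

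**Figure D2:**
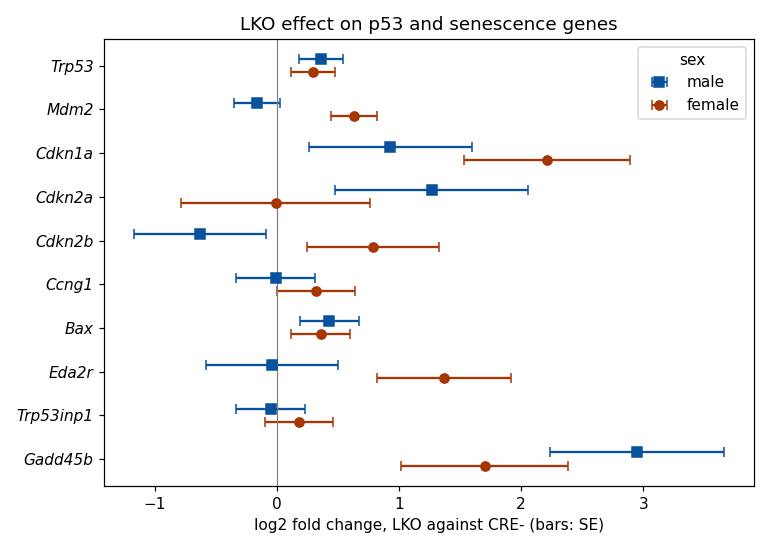
Log2 fold change of each of the 10 genes in LKO against CRE- livers from edgeR, with bars for the SE, in males (squares) and females (circles), 4 mice per group. Gadd45b is at 2.95 in males (1.11 without male LKO replicate 1) and Cdkn1a at 2.21 in females, and none of the genes passed an adjusted p of 0.05 in the edgeR test.

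Mouse by mouse, the female LKO livers did not share a single pattern of these genes. In replicate 1, 7 of the 10 genes were above every female control and 1, Bax, was below, while 37.3% of all genes tested were above and 33.4% below. In replicate 4, 8 of the 10 were above and 2, Ccng1 and Eda2r, were below, while 27.8% and 29.0% of all genes were. Replicates 1 and 4 thus had similar Cdkn1a, and Ccng1 and Eda2r at opposite ends. Replicate 2 had 5 of the 10 above and 1 below (22.5% and 22.6% of all genes), and replicate 3 had 7 above and 2, the INK4 genes, below (24.8% and 24.1% of all genes). In the male LKO livers 5, 3, 4 and 3 of the 10 genes were above every male control in replicates 1 to 4. Of all genes, 20.2%, 17.7%, 16.4% and 22.3% were. Below every male control were 0, 0, 0 and 1 of the 10, Trp53inp1 in replicate 4, and 17.1%, 13.5%, 14.2% and 14.6% of all genes.

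**Figure D3:**
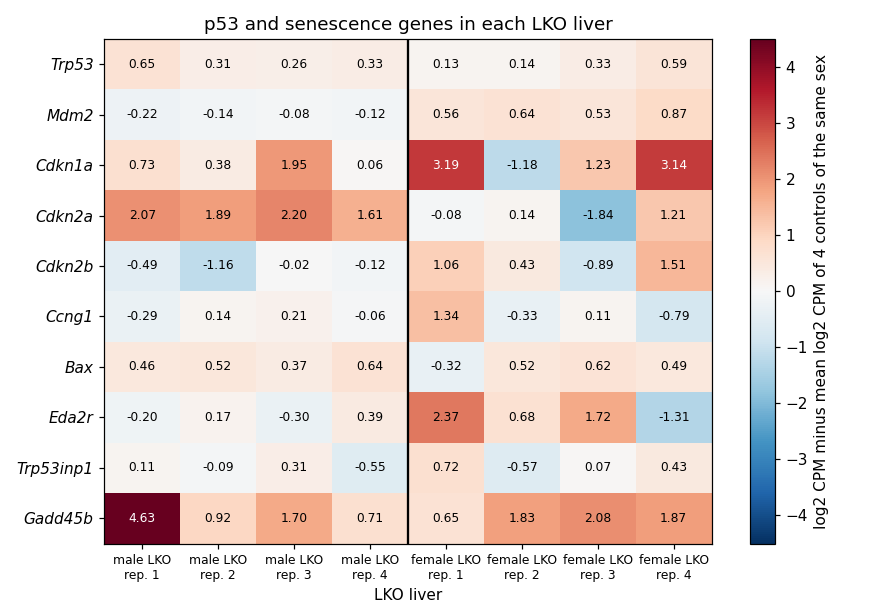
Log2 CPM of each gene in each LKO liver minus the mean log2 CPM of the 4 controls of the same sex, as printed in each cell and coloured from blue (lower) to red (higher). Female LKO replicates 1 and 4 share high Cdkn1a (3.19 and 3.14) and differ in Eda2r (2.37 and -1.31), and male LKO replicate 1 has the highest Gadd45b value (4.63).

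Per kilobase of exon, Bax had the highest mean level of the 10 genes in each of the 4 groups. In male CRE- and female LKO livers its range overlapped that of the next gene. In female CRE- livers it was at 25.2 ± 4.09 CPM per kb (SD, n = 4), apart from the rest. Ccng1 (12.1), Trp53inp1 (11) and Trp53 (10.8 CPM per kb) followed there, and their ranges overlapped. Below a gap came Cdkn1a (3.95), Mdm2 (2.23), Gadd45b (2.05) and Cdkn2a (1.21 CPM per kb), each overlapping the next, then Cdkn2b (0.419) and Eda2r (0.153 CPM per kb), whose ranges were apart. Male CRE- livers had the same order except that Mdm2 (3.43 CPM per kb) stood above Cdkn1a (2.08 CPM per kb), with overlapping ranges. In female LKO livers Cdkn1a moved to the place after Bax, at 18.3 ± 15.7 CPM per kb (SD, n = 4), and its range there, from 1.54 to 32.2 CPM per kb, took in that of Ccng1.

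Over the 16 libraries the log2 CPM values of the 10 genes formed 45 pairs, whose Pearson r ranged from -0.48 to 0.76 with a median of 0.06. The pairs share libraries and group differences, so these values are descriptions. Trp53 and Gadd45b had the highest r (0.76, Spearman rho 0.72, and 0.56 within groups). Ccng1 and Eda2r had an r of 0.72 (rho 0.46), which was 0.17 without female LKO replicates 1 and 4, the livers farthest from the median of Ccng1. For the 3 members with the smallest p, the 4 most similar of 16732 other genes were also found. The pattern of Cdkn1a was nearest to those of Sptlc2 (r 0.92), Dlgap5 (0.89), Lyve1 (0.88) and Ccna2 (0.87), with rho from 0.71 to 0.82. Without female LKO replicates 1 and 4 these r values were 0.71, 0.75, 0.61 and 0.70. Mdm2 was nearest to Setd1a (r 0.92), Spaca6, Mapk8ip3 and Phf12 (0.90 each), with r from 0.74 to 0.87 without female CRE- replicates 2 and 4. Gadd45b was nearest to Cbr3 (r 0.88), Usp18 (0.86), Hmga1 (0.83) and Rpl12 (0.82), with r from 0.73 to 0.89 without male LKO replicate 1 and female LKO replicate 3.

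The DNA that p53 binds is a pair of decamers, and the promoters of the members were searched for it to show which of these genes carry its letters near their start. RefSeq promoters (GRCm38.p6, 250 bases before to 50 after the start) were held for 9 of the 10 genes, and Trp53inp1 was not among them. A single p53 decamer consensus, which reads the same on both strands, was in the promoters of 5 of the 9 (Trp53, Mdm2, Cdkn1a, Ccng1 and Bax) and of 9.55% of 27025 genes. A pair of exact decamers 0 to 13 bases apart was in 1 of the 9, Cdkn1a, and in 0.0740% of genes. In a wider search chosen after seeing the data, on GRCm39 in windows from 3000 bases before to 3000 after each start in the count table, an exact pair was found for 2 of the 10 genes (Cdkn1a and Trp53inp1) and for 1.79% of 40962 genes. A pair of adjacent decamers with up to 2 mismatches outside the cores was found for 3 of the 10 (Cdkn1a, Ccng1 and Cdkn2b) and for 3.85% of genes. For Cdkn1a these matches overlap, and the adjacent pair starts 51 bases before the gene at chr17:29309902-29309921 on the plus strand. That of Ccng1, at chr11:40645763-40645782, and that of Cdkn2b, at chr4:89226637-89226656, lie in introns, 262 and 2613 bases after the start, and are given on the minus strand as the genes are. The pair of Trp53inp1, at chr4:11155112-11155132 on the plus strand, lies outside the gene, 1329 bases before its start, with 1 base between its decamers. Each adjacent pair printed has 1 mismatch, and capitals mark the core of each decamer. A match describes letters only, and binding was not measured.
Cdkn1a: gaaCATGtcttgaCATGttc
Ccng1: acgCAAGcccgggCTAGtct
Cdkn2b: agaCATGtccggtCTTGctc
Trp53inp1: aaaCATGtccaggaCTAGcct

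Other genes of the p53 pathway were described from lists, by how many passed the edgeR test and by their median log2 fold change. These lists and those below were chosen with earlier results of these data known, so their counts beside all genes are descriptions. No gene of any of these lists was called in males by edgeR. Of 39 tested p53 target genes outside the 10 members, 4 were called higher and 1 lower in female LKO livers, while 350 of all genes tested were called higher and 360 lower. DESeq2 called 9 of the 39 in females and limma-voom 11, and 12 were higher and 4 lower before adjustment. For comparison with each list, DESeq2 called 10.8% and limma-voom 11.8% of all genes in females, and 2.03% and 0.884% in males. Before adjustment, 12.3% of all genes were higher and 9.14% lower in females, and 4.79% and 4.74% in males. The median of the 39 was 0.21 in females and 0.01 in males, beside 0.04 and -0.01 for all genes tested. Tnfrsf10b, a death receptor, was at 0.532, 0.428, 0.287 and 0.321 CPM in female CRE- livers and at 1.36, 1.2, 1.83 and 2.55 CPM in female LKO livers, so every LKO liver was above every control. It rose by 2.13 in log2 (SE 0.42, adjusted p = 0.0168 from the quasi-likelihood fit of edgeR, Benjamini-Hochberg adjusted). Sesn2, a sestrin that restrains growth signalling and is induced by several stresses, rose by 1.15 (SE 0.28, adjusted p = 0.0332 from Benjamini-Hochberg on edgeR quasi-likelihood). Its 4 of 4 female LKO livers were above every control, but the nearest values, 6.77 CPM in LKO replicate 4 and 6.74 CPM in CRE- replicate 2, were almost equal. Ckap2 (2.13) and Gtse1 (1.68), which act in mitosis, also rose, and Ei24, an endoplasmic reticulum protein, fell by 0.75. In males these 5 genes had log2 fold changes from -0.59 to 0.91, the latter that of Sesn2, whose male groups did not overlap. The 5 calls became 2, 0, 0 and 0 when female CRE- replicates 1 to 4 were left out in turn, and 1, 8, 1 and 2 for LKO replicates 1 to 4. For comparison with each list, the 710 female calls among all genes became 385, 87, 122 and 110 without CRE- replicates 1 to 4. Without LKO replicates 1 to 4 they became 237, 1310, 536 and 404, so calls were lost or gained among all genes too. Before adjustment, at p under 0.05, 5 of the 39 were higher and 3 lower in males, DESeq2's Wald test called 2 and limma-voom 1, and edgeR called 1 without male CRE- replicate 4.

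The 18 tested regulators and relatives of p53 had 0 calls in either sex with edgeR, DESeq2 and limma-voom, with 3 at an unadjusted p under 0.05 in males and 0 in females. Their median was -0.13 in males and 0.10 in females. Their most abundant gene per length, Rchy1, another ubiquitin ligase of p53, had a log2 fold change of 0.19 in males and -0.11 in females. Of 22 tested CDK inhibitors, cyclins and RB pathway genes, Ccne1 was called in females, and the median was 0.36 there and 0.03 in males. Cyclin E1 transcripts were at 0.621, 0.0779, 0.239 and 0.481 CPM in CRE- livers and at 2.54, 2.29, 1.54 and 2.08 CPM in LKO livers, with no overlap. Ccne1 rose by 2.57 in log2 (SE 0.49, adjusted p = 0.0149 from the quasi-likelihood fit of edgeR, Benjamini-Hochberg adjusted), lost its call without female CRE- replicate 3, and was joined by others without female LKO replicate 2, where 3 were called. DESeq2 and limma-voom each called 4 of the 22 in females, and 7 were higher and 0 lower there before adjustment. In males 3 of the 22 had an unadjusted p under 0.05 and none was called by edgeR, DESeq2 or limma-voom. Of 16 tested BCL2 family and caspase genes, Bcl2l11, the pro-apoptotic BIM, rose by 0.99 (SE 0.23) and Casp9, an initiator caspase, fell by 0.54 (SE 0.13) in females. Casp9 was below every control in every LKO liver of both sexes, with a male log2 fold change of -0.42 that was not called. These 2 calls were 0 without any of the female CRE- replicates or without female LKO replicate 4, and 1 without LKO replicate 1 or 3. DESeq2 and limma-voom each called 3 of the 16 in females, and the median was 0.02 there and -0.03 in males. Before adjustment 1 of the 16 was higher and 3 were lower in females. In males 2 of the 16 had an unadjusted p under 0.05, with 1 called by DESeq2 and 0 by limma-voom.

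Of the 10 GADD45 relatives and stress kinases 0 were called in either sex by edgeR, DESeq2 or limma-voom, with 1 at an unadjusted p under 0.05 in each sex. The median was -0.18 in males and -0.19 in females, and the most abundant kinase per length, Map2k3, had log2 fold changes of -0.28 and -0.57. Of 5 tested genes around Eda2r 0 were called by edgeR, with 1 at an unadjusted p under 0.05 in females and 0 in males, and DESeq2 called 1 in females. The median was -0.44 in males, with 0 of 5 above 0, and 0.50 in females, with 5 of 5 above 0. Traf6, the most abundant of them per length, had a log2 fold change of -0.18 in males and 0.08 in females. Among 37 tested secretory genes of senescence, the urokinase gene Plau and its receptor gene Plaur were called in females, rising by 2.16 and 2.05. Plau was at 2.62, 1.75, 2.73 and 3.21 CPM in CRE- livers and at 29.1, 3.22, 5.78 and 8.04 CPM in LKO livers, with replicate 1 far above the rest, and its log2 fold change was 1.16 without that mouse. DESeq2 called 8 of the 37 in females and limma-voom 9, and the list's median was 0.53 in females and -0.05 in males. The 2 calls became 1, 0, 0 and 0 when female CRE- replicates 1 to 4 were left out in turn, and 1, 6, 2 and 1 for LKO replicates 1 to 4. Of 10 tested chromatin and lysosome genes linked to senescence, Ezh2, a histone methyltransferase that represses the Cdkn2a locus in dividing cells, rose by 1.05 (SE 0.25) in females, where the list's median was 0.28 (0.04 in males). Leaving out any of the female CRE- replicates, or LKO replicate 1, lost this call, and the list had 2 calls without LKO replicate 2 and 3 each by DESeq2 and limma-voom. Before adjustment, 13 of the 37 secretory genes were higher and 1 lower in females, and 3 of the 10 chromatin and lysosome genes were higher and 0 lower. In males these lists had 3 and 1 genes at an unadjusted p under 0.05, and DESeq2 called 0 and 1 of them and limma-voom 0 of each.

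Part of the genes of the S phase, G2 and mitosis were called higher in female LKO livers. Of 21 tested, 9 were called higher and 0 lower in females, where edgeR called 2.09% of all genes tested higher. The median log2 fold change was 1.72 in females, and 0 were called in males, with a median of 0.15. DESeq2 called 16 of the 21 in females and limma-voom 15, where they called 10.8% and 11.8% of all genes. Before adjustment 17 were higher and 0 lower in females, where 12.3% of all genes were higher. In males 2 of the 21 had an unadjusted p under 0.05, where 9.53% of all genes did, and DESeq2 and limma-voom called 0. For the difference between the sexes edgeR called 0 of the 21, with 12 at an unadjusted p under 0.05, and DESeq2 called 2 and limma-voom 0. The list summed to 68.8, 75.2, 69.9 and 107.6 CPM in female CRE- livers and to 281.7, 96.4, 150.6 and 140.3 CPM in female LKO livers. LKO replicate 1 was the highest and replicate 2 lay below the highest control. Nek2, a centrosome kinase, rose by 2.14 (SE 0.31, adjusted p = 0.00370 from the quasi-likelihood fit of edgeR, Benjamini-Hochberg adjusted) and kept its call without each of the 8 female mice. Birc5 (1.63), Ccnb1 (2.60), Plk1 (2.76), Foxm1 (2.53) and Cdk1 (1.72), which drive or complete mitosis, also rose, each above every control in 4 of 4 LKO livers. The 9 calls became 3, 1, 1 and 3 when female CRE- replicates 1 to 4 were left out in turn, and 1, 13, 7 and 6 for LKO replicates 1 to 4. The part of dividing cells in the values of Cdkn1a was not tested.

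Some markers of macrophages and neutrophils were called higher in female LKO livers, and the number depended on the tool and on single mice, as did that of all genes tested. Of 12 macrophage and Kupffer cell markers, all tested, 2 were called higher, Cd14 (2.68) and Adgre1 (2.15), and 10 were higher at an unadjusted p under 0.05, while DESeq2 called 8 and limma-voom 11. The median was 1.39 in females and 0.15 in males, Cd5l was the most abundant per length, and no marker was at 0 throughout. Without LKO replicate 1 Adgre1 was at 1.21, and without LKO replicate 4 Cd14 was at 1.80, neither of them called. The list summed to 993.3, 737.1, 816.1 and 1673 CPM in female CRE- livers and to 4592, 1261, 2951 and 1877 CPM in female LKO livers, with the sum highest in replicate 1, while Cd14 was highest in replicate 4. Of 9 tested neutrophil markers 4 were called higher in females, Mmp8 (3.5) and Ltf (4.88) among them, which were 2.66 and 3.58 without LKO replicate 4, while DESeq2 called 9 and limma-voom 3, and Ly6g was below the filter. Before adjustment 9 of the 9 neutrophil markers were higher in females. Their median was 3.5 in females and -2.24 in males. The list, led by S100a9, summed to 39.7, 21.6, 17.5 and 19.6 CPM in female CRE- livers and to 145, 47.4, 77.9 and 675 CPM in female LKO livers. Replicate 4 was far above the rest. In male CRE- livers neutrophil markers summed to 103.3, 21.5, 21.2 and 209.2 CPM, and in male LKO livers to 27.9, 17.6, 13.5 and 12.7 CPM. Male control replicates 1 and 4 were high, 0 of the 9 markers were called by edgeR in males, 8 were lower at an unadjusted p under 0.05, DESeq2 called 4 and limma-voom 0, and edgeR called 1 without male CRE- replicate 2. The 2 macrophage calls became 0 without any of the female CRE- replicates or without LKO replicate 1, 6 without LKO replicate 2, and 1 without LKO replicate 3 or 4. The 4 neutrophil calls became 1, 0, 0 and 0 when female CRE- replicates 1 to 4 were left out in turn, and 0, 9, 6 and 0 for LKO replicates 1 to 4. The part of these cells in the values of the 10 genes was not tested.

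Oncofetal and tumour genes of the liver were highest in female LKO replicate 4, which also had high Cdkn1a and the highest Trp53. The 10 genes of this list summed to 71, 48.1, 42.2 and 104.8 CPM in female CRE- livers and to 99.3, 264, 164.4 and 2634 CPM in female LKO livers. Replicate 4 was far above the rest and replicate 1 lay below the highest control, although both had high Cdkn1a. In females 4 were called higher and 0 lower, with a median of 2.04 (5 called by DESeq2 and 4 by limma-voom), among them Ly6d (4.45), Igf2 (6.81) and H19 (7.59), which was the most abundant per length. Without LKO replicate 4 these were 2.86, 3.60 and 4.88. H19 was at 6.81, 0.467, 0.575 and 2.51 CPM in female CRE- livers and at 6.62, 150.3, 71.8 and 1775 CPM in female LKO livers, where replicate 1 overlapped the controls. In males it was at 0.284, 0.579, 0.884 and 1.89 CPM in CRE- livers and at 24.7, 2.29, 48.5 and 6.43 CPM in LKO livers, which did not overlap, with a log2 fold change of 4.5 (SE 1.42) that was not called. Of the 10 genes of the list, 8 were higher and 0 lower in females at an unadjusted p under 0.05. In males 0 were called by edgeR and limma-voom and 1 by DESeq2, with 2 at an unadjusted p under 0.05 and a median of 0.59. The 4 calls became 1 without each of the female CRE- replicates 2, 3 and 4. The part of such cells in the members' values was not tested.

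The other marker lists had few calls. Hepatocyte markers had 0 calls by edgeR in either sex, with 4 of 10 lower at an unadjusted p under 0.05 in each sex and the medians given with Gcgr. DESeq2 called 2 of them in females and 0 in males, and limma-voom 3 and 0. With female LKO replicate 2 left out edgeR called 2, and with replicate 3 left out 1. They summed to 118878, 116670, 122632 and 137157 CPM in female CRE- livers and to 55100, 98280, 89660 and 71435 CPM in female LKO livers, each LKO liver below each control. T and NK cell markers, led by Trbc2, and stellate cell and fibroblast markers, led by Dcn, had 0 calls by edgeR in either sex, with medians of 0.26 and 0.19 in females and -0.07 and -0.55 in males. At an unadjusted p under 0.05 there were 1 and 0 in females and 0 and 1 in males, DESeq2 called 0, and limma-voom called 2 and 1 in females. B and plasma cell markers, led by Igkc, also had 0 calls, with a median of 0.76 in females and 0.08 in males, 3 at an unadjusted p under 0.05 in females and 0 in males, and 1 called in females by DESeq2 and by limma-voom. The 9 endothelial markers were mixed in females, with a median of 0.16 (0.24 in males), 6 above 0, and, before adjustment at p under 0.05, 3 higher and 1 lower. Clec4g, the most abundant, was at -0.70 (SE 0.40), with 3 of 4 LKO livers below every control, and was not called. Cdh5 was called, rising by 0.79 (SE 0.17), a call lost without female CRE- replicate 2, 3 or 4 or LKO replicate 1, and the list had 2 calls without LKO replicate 2 and 2 each by DESeq2 and limma-voom. Among cholangiocyte markers, with a median of 0.01 in females and 0.63 in males, Tspan8 rose by 2.66 (SE 0.65) in females, a call lost without any of the female CRE- replicates or LKO replicate 4, and its log2 fold change was 1.57 without the latter. Neither of these lists had a call or an unadjusted p under 0.05 in males, and DESeq2 and limma-voom called 0 there.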

How the data were processed

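Messenger RNA of 16 livers, purified with poly-T beads, was sequenced as read pairs. Alignment by the authors used STAR 2.7.1a and the GRCm39 genome, and featureCounts from Subread 2.0.6, reverse-stranded, gave the count of reads per gene that the authors deposited, without normalization. All 16 count columns were matched to a mouse, and 0 were left over. Between 79.1% and 86.8% of the counts from 1 to 50 were even, so both reads of a pair were counted, and a fragment can add 2 counts. The floor given for 0 counts covers counting error only. The SEs come from the fitted tests, which take in the spread between mice.

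Counts were filtered with filterByExpr (minimum count 10), scaled by TMM and fitted for all 4 groups together with edgeR 4.0.16 in R 4.3.3 by the quasi-likelihood test, with Benjamini-Hochberg adjustment over the 16742 genes tested and a threshold of 0.05. The contrasts were LKO against CRE- in each sex, the difference between these effects, and female against male CRE-. Log2 CPM used a prior count of 2. The fit was tested on simulated counts. Alternatives were DESeq2 1.42.0, limma 3.58.1 with voom and sample quality weights, each sex fitted alone, RLE size factors, no filter, a minimum of 10 counts per library throughout, a replicate term, and removal of single mice.

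The members and the 18 lists were chosen with earlier results of these data known. Named were every member, Gcgr, up to 6 called genes per pathway list (or its most abundant gene per length), for each marker list its most abundant gene per length and called genes, at most 3 in all, and the 4 genes most like each of 3 members. The lists were regulators and relatives of p53, other p53 targets, CDK inhibitors and RB pathway, BCL2 family, GADD45 family and stress kinases, ectodysplasin pathway, secretory genes of senescence, senescence chromatin and lysosome genes, proliferation, oncofetal and tumour genes, and markers of hepatocytes, neutrophils, macrophages, B and plasma cells, endothelium, T and NK cells, stellate cells and fibroblasts, and cholangiocytes. Promoters came from RefSeq. The GRCm39 windows and the search with mismatches were chosen after seeing the data. A planned comparison of the INK4 proteins was not run, since no protein sequences were held. An item withheld for evaluation is not reported here.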

Additional observations from a re-analysis of the deposited data

Results flagged for a closer look

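In 3 of the 44 groups of 4 livers examined for the 10 genes and Gcgr, 1 liver lay far from the other 3 (Dixon's ratio of gap to range past its critical value for 4 values). Chance gives about 1 in 20 such groups. Male LKO replicate 1 was the liver in 2 of them, with Trp53 at 33.9 CPM (ratio 0.841) and Gadd45b at 42.6 CPM (ratio 0.931). The third was Gcgr in male CRE- replicate 3, at 127.3 CPM (ratio 0.949). For none of the 10 genes did the LKO effect differ between the sexes at an adjusted p under 0.05 in edgeR's quasi-likelihood test. DESeq2 and limma-voom also called 0 of the 10. By edgeR 1 of the 10, Mdm2, and 2672 of the 16742 genes tested, a larger share, had an unadjusted p under 0.05.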

How the results depend on the processing

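The count of members called was 0 in males, in the sex difference and in the controls under every alternative run. In females it was 2 with DESeq2 and 3 with limma-voom, and from 0 to 1 with a mouse left out (Cdkn1a without LKO replicate 2, Eda2r without LKO replicate 4). The replicate block called 1 of the 10 (Mdm2, log2 fold change 0.65) and 1244 of all genes in females. Livers sharing a number had correlations of their deviations from -0.25 to 0.332 (median 0.093), beside -0.292 to 0.344 (median -0.0205) for other numbers. Not every pair was above 0.1, and not every liver correlated best with its own number, so the numbers were not taken as pairs.

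Of all genes tested, the male count of 76 was 339 with DESeq2, 148 with limma-voom and 26 to 49 with a mouse left out. The female count of 710 was 1809 with DESeq2, 1976 with limma-voom, 119 with each sex fitted alone and 87 to 1310 with a mouse left out. The count for the sex difference was 371 with DESeq2, 29 with limma-voom, 12 with no filter and 0 to 14 with a mouse left out. For the controls 154 became 506 with DESeq2, 329 with limma-voom, 78 with at least 10 counts in every library and 68 to 149 with a mouse left out. The female Gcgr log2 fold change was not called with each sex fitted alone (-0.91), no filter (-0.92) or at least 10 counts in every library (-0.89), and was -1.11 to -0.69 with a mouse left out. The cause of these shifts was not tested.

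Some fold changes turned sign, and the cause was not tested. With limma-voom these were the sex differences of Trp53 (0.16), Ccng1 (-0.24), Bax (0.18), Trp53inp1 (-0.09) and Gadd45b (0.74), the female values of Cdkn2b (-0.24), Ccng1 (-0.09) and Trp53inp1 (-0.20), and the male values of Ccng1 (0.14) and Eda2r (0.21). For female against male controls, limma-voom also turned the values of Trp53 (-0.02), Cdkn2b (0.11) and Trp53inp1 (0.17). The male value of Eda2r was 0.15 with the replicate block. With a mouse left out, male values ranged from -0.11 to 0.07 for Ccng1, -0.25 to 0.20 for Eda2r and -0.19 to 0.08 for Trp53inp1. Female values ranged from -0.63 to 0.52 for Cdkn2a, -0.27 to 0.55 for Ccng1 and -0.00 to 0.37 for Trp53inp1. Sex differences ranged from -0.19 to 0.07 for Trp53, -0.26 to 0.57 for Ccng1, -0.21 to 0.16 for Bax and -1.56 to 0.60 for Gadd45b. Values of female against male controls ranged from -0.04 to 0.14 for Ccng1, -0.08 to 0.27 for Bax and -0.15 to 0.14 for Trp53inp1. None of these was called. Depth limits Cdkn2a, Cdkn2b and Eda2r, which had as few as 0, 13 and 14 counts in a library. Chosen after seeing the data, the search of the GRCm39 windows found an exact pair of decamers in 2 members, where the promoters held 1, and one with mismatches allowed found an adjacent pair in 3.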
